A study of Mus musculus with 12 samples.

Results

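Probes that changed mainly between NS-GFP3+ and NS-GFP4+ cells are the subject here. They were picked from the deposited value table by 4 conditions on its log2 values. A probe had to lie above the column median in all 12 samples, and its mean had to differ by at least 0.8 between NS-GFP4+ and NS-GFP1+. At least 60% of that difference had to fall at the last step, NS-GFP4+ less NS-GFP3+. The 3 NS-GFP4+ values had to lie all above or all below the 9 others. Of 42022 probes, 18876 were above the median throughout, and 60 of them met every condition, 21 rising and 39 falling in NS-GFP4+. The 21 rising probes hold 18 named genes and 2 probes without a symbol, and Art4 has 2 probes among them. The 39 falling probes hold 30 named genes and 9 probes without a symbol.

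The LSK gate of bone marrow, named for the absence of lineage markers and the presence of Sca-1 and Kit, holds a mixture of stem cells together with multipotent progenitors that have begun to express lymphoid or myeloid genes. Progenitors in this compartment gain the cytokine receptor Flt3 and later lineage transcription factors. Stem cells share several genes with megakaryocytes and endothelium, among them integrins and coagulation proteins.

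All cells came from the bone marrow of C57BL/6 mice carrying the NS-GFP transgene, in which a region of the NS promoter drives GFP, and a gate on GFP level gave 4 fractions. They are NS-GFP4+, NS-GFP3+, NS-GFP2+ and NS-GFP1+, with 3 samples each, and none of them is a sample without the transgene. The labels give neither age, nor which number is brightest, nor whether samples of a fraction are separate animals, so p-values here refer only to sample-to-sample spread, part of which can be technical. The study's title links the reporter to stemness, and GFP here reports promoter activity, not the NS protein. Each sample was hybridised to a 1-colour Agilent array, and log2 values of all 12 samples are in the value table, with column medians of 6.11 to 6.12. The 75th percentile of the unscaled signal lay between 415 and 736.

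The separate signal file of NS-GFP3+ replicate 3 holds, at each of 42071 positions, the values of NS-GFP2+ replicate 3, while its column in the value table is its own, so that its values here cannot be traced to a signal file. The replicate 3 samples stand apart from the others: within fractions, 6532 of 18876 probes (34.6%) differed between replicate 3 and replicates 1 and 2 (limma, Benjamini-Hochberg adjusted p under 0.05). Of the genes that define the sort, Kit was above the column median in every sample, at 12.36 to 13.19, and Ly6a, which encodes Sca-1, was not analysed here. Gnl3, the gene of nucleostemin, which the labels do not tie to the NS promoter, had 10.36, 10.39 and 10.48 in NS-GFP4+ and 10.96, 10.72 and 10.42 in NS-GFP3+. Its values in NS-GFP2+ and NS-GFP1+ lay between 10.39 and 10.73, and it did not rise with the fraction number.

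The last step separated these probes by definition, so the sizes below describe the choice and carry no test. Of the probes that differed by at least 0.8 between NS-GFP4+ and NS-GFP1+, 386 rose, and the median share of the difference at the last step was 40.4%. Among the 317 that fell, the median share was 47.3%. Rising probes changed at the last step by log2 0.51 to 2.67 with a median of 0.78, and falling probes by -1.65 to -0.50 with a median of -0.69. In linear terms the median last step was 1.72-fold up and 1.61-fold down. Most of these probes were dim: 2 of 21 rising and 9 of 39 falling ones were brighter than the median of the 18876 probes. Their median brightness percentile was 26.0 for rising and 23.5 for falling probes. The same conditions applied to the first step, NS-GFP2+ less NS-GFP1+ with NS-GFP1+ apart, found 17 probes, 10 rising and 7 falling.

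**Figure D1:**
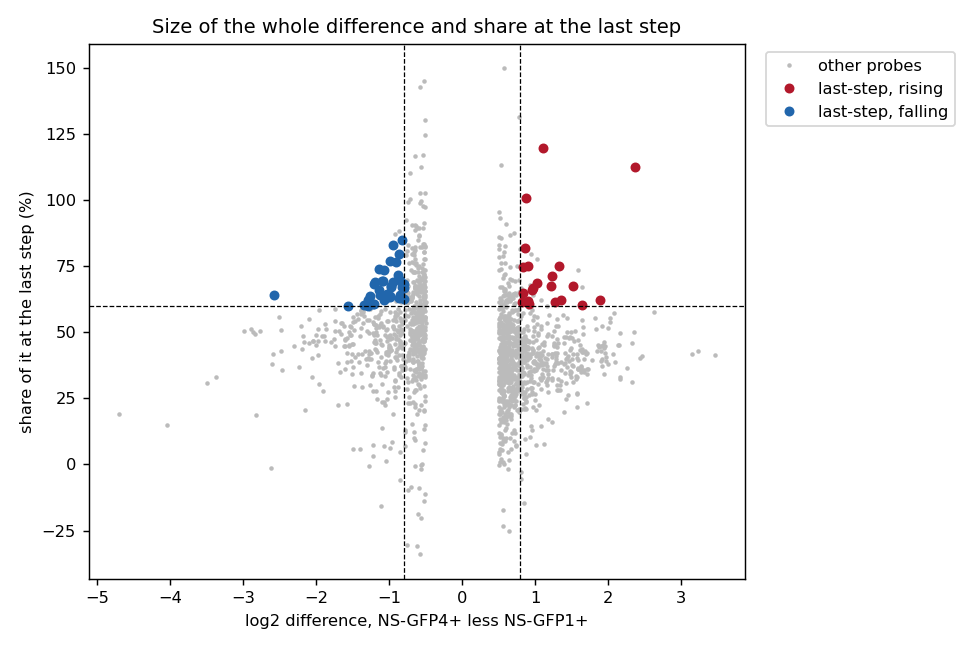
Each point is 1 probe, with the log2 difference NS-GFP4+ less NS-GFP1+ on the x axis and the share of it at the last step, in percent, on the y axis. Red and blue points are the 21 rising and 39 falling last-step probes, dashed lines mark 0.8 and 60%, and grey points beyond the lines failed to set the NS-GFP4+ samples apart. Differences under 0.5 are not drawn, nor are 7 larger ones with shares outside -50% to 150%.

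Before the last step most of these probes had already moved a little the same way. The 4 fraction means followed the fraction number in 17 of 21 rising and 29 of 39 falling probes. NS-GFP2+ lay on the NS-GFP4+ side of NS-GFP1+ in 19 rising and all 39 falling probes. At that first step the median difference was log2 0.20 for rising and -0.26 for falling probes, and at the middle step, NS-GFP3+ less NS-GFP2+, it was 0.15 and -0.12. The conditions limit how far NS-GFP3+ can lie from NS-GFP1+, so small early steps are part of the choice. In limma 0 of the 60 passed an adjusted p of 0.05 at either step, with or without the replicate number as a block, and nothing is read from this count, since few probes of any kind passed there. Over all probes 0.106% were higher and 0.0901% lower in NS-GFP2+ than in NS-GFP1+, and 0% passed in either direction between NS-GFP3+ and NS-GFP2+, where 732 had an unadjusted p under 0.05 and 0.0371% were higher and 0.0954% lower in the blocked fit. The blocked fit called 1.19% higher and 0.646% lower in NS-GFP2+ than in NS-GFP1+.

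**Figure D2:**
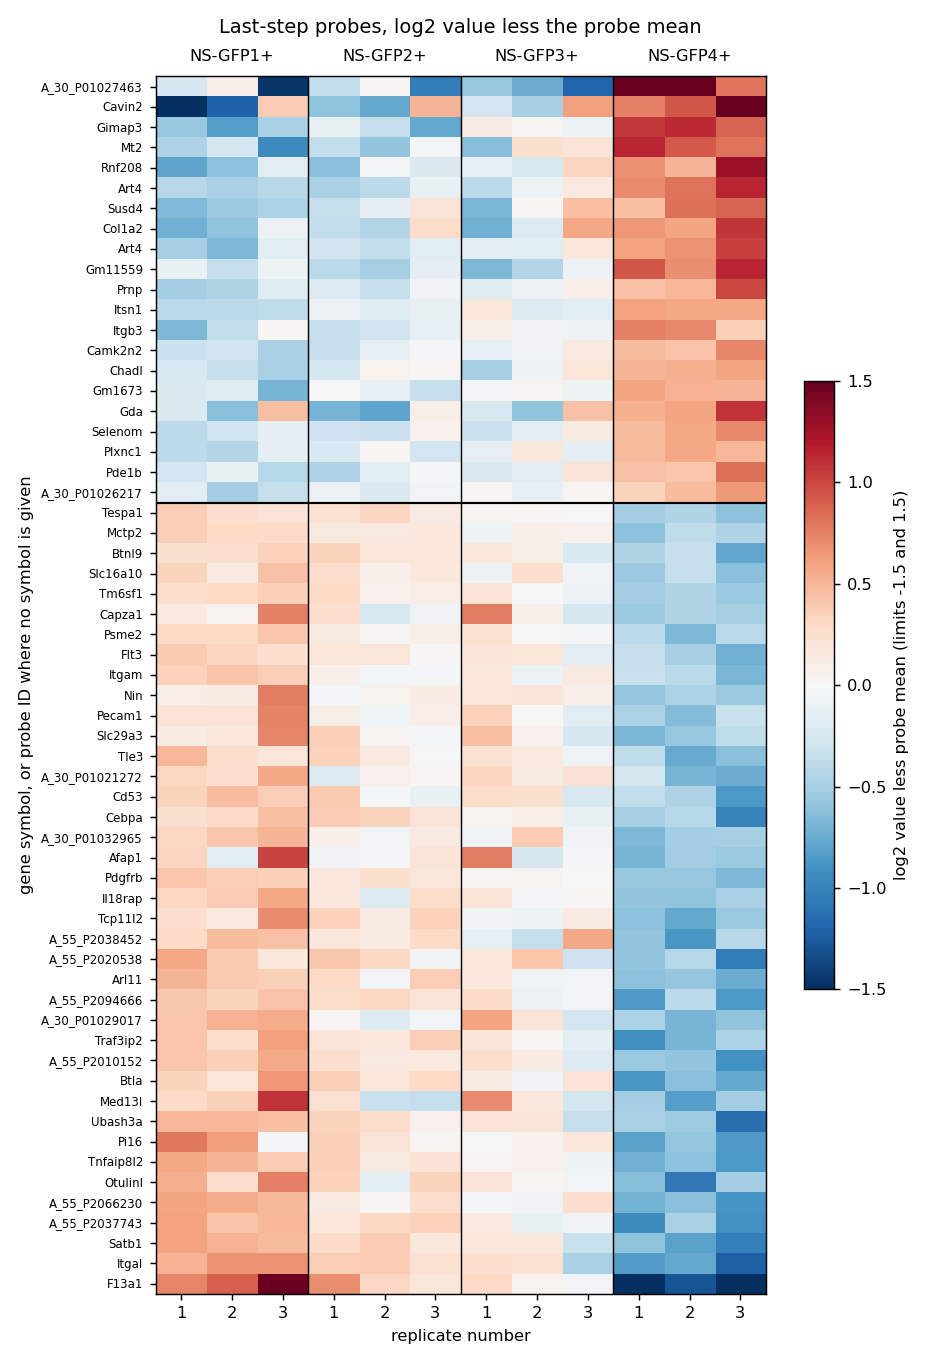
Rows are the 60 last-step probes, rising above and falling below the black line, and columns are the 12 samples by fraction and replicate number. Colour gives the log2 value less the probe's mean, limited at -1.5 and 1.5. All NS-GFP4+ columns are red above the line and blue below it. In some rows the other 9 columns also differ widely, as for Cavin2, with log2 values of 7.26 to 9.37 there.

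The falling genes include Flt3 together with adhesion and inhibitory receptors of blood cells, transcription regulators of the lymphoid and myeloid lineages, and the coagulation enzyme F13a1. F13a1, the catalytic subunit of factor XIII that crosslinks fibrin and is made by monocytes and megakaryocytes, had the largest fall. Its log2 values were 10.72, 10.89 and 11.47 in NS-GFP1+, 10.69, 10.30 and 10.18 in NS-GFP2+, 10.29, 10.05 and 9.95 in NS-GFP3+ and 8.17, 8.70 and 8.47 in NS-GFP4+. The NS-GFP1+ samples were highest, the middle fractions lay close together, and the NS-GFP4+ samples were lower than the rest by at least 1.25. It averaged 8.45 ± 0.26 in NS-GFP4+ and 10.10 ± 0.18 in NS-GFP3+ (SD, n = 3 each), a 3.14-fold fall. F13a1 also stands in a list of 13 neutrophil and monocyte markers, 8 of them tested, whose mean level was 9.88 to 10.92 in NS-GFP4+ and 10.28 to 12.01 in NS-GFP3+. Of the 7 others tested, S100a8, S100a9, Ngp, Camp and Ltf differed by -0.60, -0.62, -0.87, -0.71 and -0.71 and did not pass in limma. The median of the 8, F13a1 included, was -0.66 at the last step. The markers of the 8 that are not named here lay above it. Between NS-GFP4+ and NS-GFP1+ that median was 0.22, against -2.58 for F13a1 alone, and the mean level in NS-GFP1+ was 9.41 to 10.98. The part of such cells in the F13a1 fall was not tested. In bulk samples fewer cells of a type and less RNA per cell cannot be told apart.

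Among receptors, Flt3, the receptor tyrosine kinase of multipotent progenitors, was the brightest falling probe with a symbol, with values of 14.38, 14.31 and 14.25 in NS-GFP1+, 14.18, 14.18 and 14.01 in NS-GFP2+, 14.19, 14.17 and 13.82 in NS-GFP3+ and 13.65, 13.49 and 13.27 in NS-GFP4+. NS-GFP3+ replicate 3 lay below the other 2 samples of its fraction and 0.18 above the nearest NS-GFP4+ sample. Flt3 averaged 13.47 ± 0.19 in NS-GFP4+ and 14.06 ± 0.21 in NS-GFP3+ (SD, n = 3 each), a difference of log2 -0.59. The integrin alpha chains Itgal and Itgam, which both pair with the beta chain Itgb2 on leukocytes, were lower too. Itgal had values of 8.73, 8.88 and 8.88 in NS-GFP1+, 8.58, 8.59 and 8.43 in NS-GFP2+, 8.46, 8.44 and 7.72 in NS-GFP3+ and 7.38, 7.44 and 6.98 in NS-GFP4+, and again NS-GFP3+ replicate 3 stood between its fraction and NS-GFP4+. For Itgam they were 7.36, 7.44 and 7.38 in NS-GFP1+, 7.08, 6.98 and 7.00 in NS-GFP2+, 7.19, 6.92 and 7.15 in NS-GFP3+ and 6.68, 6.61 and 6.32 in NS-GFP4+, at the dim end of the eligible probes. A second Itgam probe, bright at 14.83 in NS-GFP4+ and 14.55 in NS-GFP3+, did not, so the lower level of Itgam rests on 1 probe.

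Other falling surface proteins were Btla, an inhibitory receptor of lymphocytes, Il18rap, the accessory chain of the interleukin-18 receptor, Cd53, a tetraspanin of leukocytes, and Pecam1, an adhesion molecule of blood and endothelial cells. Btla averaged 7.43 ± 0.13 in NS-GFP4+ and 8.28 ± 0.14 in NS-GFP3+ (SD, n = 3 each), and 74% of its difference fell at the last step. Il18rap differed by -0.63. The NS-GFP4+ samples were lower than any other by at least 0.56 for Btla and 0.28 for Il18rap, and the Il18rap samples of NS-GFP2+, at 8.09, 7.73 and 8.20, were further apart than that. Cd53 differed by log2 -0.66 at the last step, Pecam1 by -0.55 and Pdgfrb, a receptor tyrosine kinase best known from mesenchymal cells, by -0.63. Btnl9, a butyrophilin-like protein, differed by -0.54, and the transporters Slc29a3, for nucleosides, and Slc16a10, for aromatic amino acids, by -0.63 and -0.55.

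Of the transcription regulators, Satb1, a chromatin organiser needed for lymphoid development, had values of 12.63, 12.54 and 12.49 in NS-GFP1+, 12.31, 12.40 and 12.18 in NS-GFP2+, 12.18, 12.20 and 11.69 in NS-GFP3+ and 11.42, 11.22 and 11.00 in NS-GFP4+. Its means fell in fraction order, and the NS-GFP3+ sample nearest to NS-GFP4+ was replicate 3, 0.27 away. Cebpa, the transcription factor that starts granulocyte and monocyte development, had 9.88, 9.92 and 10.08 in NS-GFP1+, 10.01, 9.97 and 9.83 in NS-GFP2+, 9.69, 9.73 and 9.52 in NS-GFP3+ and 9.13, 9.21 and 8.63 in NS-GFP4+. NS-GFP1+ and NS-GFP2+ overlapped for Cebpa, NS-GFP3+ lay just below them, and NS-GFP4+ was 0.31 further down. Tle3, a Groucho-type co-repressor, averaged 11.39 ± 0.19 in NS-GFP4+ and 12.08 ± 0.15 in NS-GFP3+ (SD, n = 3 each), with 76.5% of its difference at the last step. Med13l, a subunit of the Mediator kinase module, differed by -0.82, but its fractions below NS-GFP4+ did not follow the number, with means of 7.85 ± 0.44, 7.12 ± 0.34 and 7.48 ± 0.49 in NS-GFP1+, NS-GFP2+ and NS-GFP3+.

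Several falling genes act in lymphocyte or inflammatory signalling. Ubash3a, which dampens T cell receptor signalling, averaged 7.02 ± 0.36 in NS-GFP4+ and 7.75 ± 0.32 in NS-GFP3+ (SD, n = 3 each). Tnfaip8l2, a brake on immune cell activation, averaged 9.39 ± 0.12 in NS-GFP4+ and 10.13 ± 0.08 in NS-GFP3+, and Traf3ip2, the adaptor of the interleukin-17 receptor, 6.59 ± 0.22 in NS-GFP4+ and 7.31 ± 0.16 in NS-GFP3+. For Ubash3a replicate 3 was lowest in all 4 fractions, while the Tnfaip8l2 samples lay within narrow bands. Tespa1, which acts in thymocyte receptor signalling, differed by -0.55 and Psme2, a subunit of the proteasome activator PA28, by -0.56. Brighter Psme2 probes, at 14.65 and 12.57 in NS-GFP4+, differed by -0.00 and -0.05, so the lower level of Psme2 rests on 1 dim probe. The remaining genes among the 12 largest falls were Otulinl, a relative of the deubiquitinase OTULIN without enzyme activity, with a last step of -0.80, Pi16, a secreted peptidase inhibitor, with -0.82, the ARF-like GTPase Arl11 with -0.67, and Tcp11l2 with -0.64. The actin-capping subunit Capza1, the centrosome protein Nin, the actin-binding Afap1, the C2-domain protein Mctp2 and Tm6sf1 differed by -0.70, -0.69, -0.75, -0.50 and -0.55. For Capza1, Nin, Afap1 and Med13l NS-GFP1+ replicate 3 was the highest of the 12 samples or nearly so. Of the 9 falling probes without a symbol, A_55_P2010152 was the brightest, averaging 12.58 ± 0.19 in NS-GFP4+ and 13.33 ± 0.23 in NS-GFP3+.

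**Figure D3:**
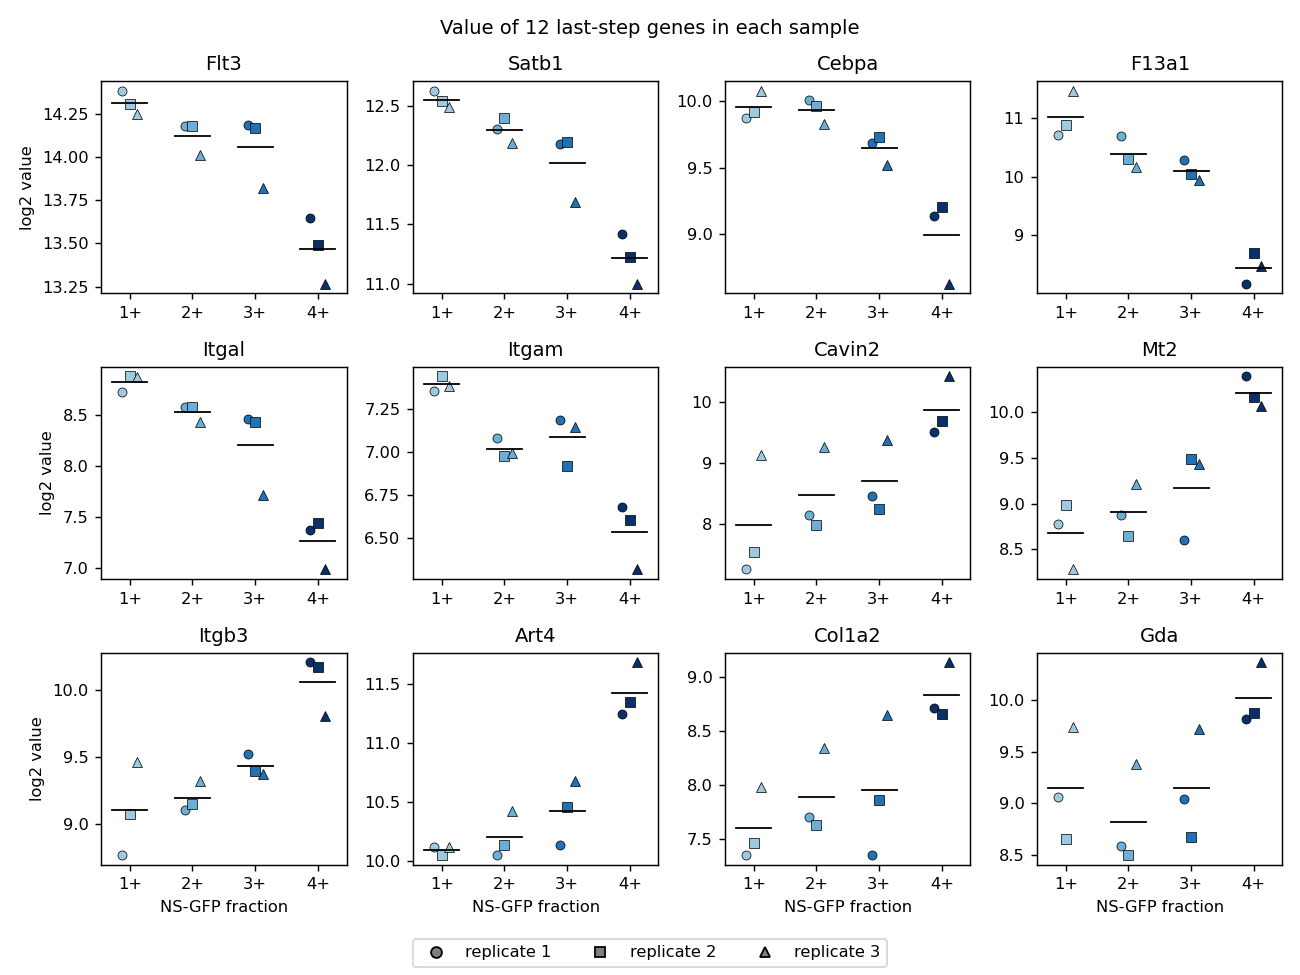
Each panel shows 1 of 12 last-step genes, with the NS-GFP fraction on the x axis and the log2 value on the y axis, whose range differs between panels. Symbols are the 3 replicate numbers and bars the fraction means. In the falling genes Flt3, Satb1, Cebpa, F13a1, Itgal and Itgam the NS-GFP4+ samples lie below all others, in the 6 rising genes above them, and for Cavin2, Col1a2 and Gda replicate 3 is highest in every fraction.

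The promoters of the named genes are described by their sequence. The members of each direction move together by the choice itself, so this is no sign of shared control. RefSeq (GRCm38.p6) gave the 250 bases before the start of 24 of 30 falling and 17 of 18 rising genes. AGGAAG, the core bound by ETS factors, occurred on either strand in 12 of 24 falling promoters (50%) and 5 of 17 rising ones (29.4%), against 29.2% of 27025 promoters. The GATA letters AGATAA or TGATAA occurred in 8.33% of falling and 11.8% of rising promoters, against 17.0% of all, and the RUNX letters TGTGGT in 8.33% and 5.88%, against 14.2%. The C/EBP letters TTGCNNAA occurred in 8.33% and 11.8%, against 9.55%. These shares are over few promoters and carry no test, a match is a description and not a site, and no motif overlaps another as searched. The promoters of 3 falling genes are shown as examples of ones that hold AGGAAG, in capitals, each in the direction of its gene. That of F13a1 is chr13:37050245-37050494 on the minus strand, that of Itgam chr7:128062390-128062639 on the plus strand and that of Btla chr16:45224087-45224336 on the plus strand.
F13a1: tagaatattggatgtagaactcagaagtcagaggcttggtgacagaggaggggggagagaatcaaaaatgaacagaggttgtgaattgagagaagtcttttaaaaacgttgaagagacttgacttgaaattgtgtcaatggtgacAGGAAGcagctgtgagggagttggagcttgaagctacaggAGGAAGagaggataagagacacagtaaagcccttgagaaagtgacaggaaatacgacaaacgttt
Itgam: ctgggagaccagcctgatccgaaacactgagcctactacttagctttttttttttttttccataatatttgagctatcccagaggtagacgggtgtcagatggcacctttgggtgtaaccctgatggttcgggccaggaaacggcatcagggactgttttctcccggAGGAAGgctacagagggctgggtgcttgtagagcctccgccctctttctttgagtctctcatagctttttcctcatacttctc
Btla: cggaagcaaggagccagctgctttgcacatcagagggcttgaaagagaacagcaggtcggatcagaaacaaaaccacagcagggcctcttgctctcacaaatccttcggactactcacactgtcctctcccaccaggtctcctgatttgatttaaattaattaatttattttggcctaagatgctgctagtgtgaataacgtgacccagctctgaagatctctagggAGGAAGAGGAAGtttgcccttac

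The rising genes include a caveolar coat protein, an integrin chain of platelets, a metallothionein, a collagen chain and a blood group protein. Cavin2, which coats and shapes caveolae and is abundant in endothelium and platelets, had the largest rise of a named gene between NS-GFP4+ and NS-GFP1+. Its log2 values were 7.26, 7.55 and 9.14 in NS-GFP1+, 8.15, 7.99 and 9.27 in NS-GFP2+, 8.47, 8.26 and 9.37 in NS-GFP3+ and 9.51, 9.69 and 10.42 in NS-GFP4+. Replicate 3 was higher than replicates 1 and 2 in every fraction, and NS-GFP3+ replicate 3 came within 0.14 of the lowest NS-GFP4+ sample. Cavin2 averaged 9.88 ± 0.48 in NS-GFP4+ and 8.70 ± 0.59 in NS-GFP3+ (SD, n = 3 each), a 2.26-fold rise. Itgb3, the beta chain of the fibrinogen receptor of platelets, had 8.77, 9.07 and 9.46 in NS-GFP1+, 9.10, 9.15 and 9.32 in NS-GFP2+, 9.52, 9.39 and 9.37 in NS-GFP3+ and 10.21, 10.17 and 9.80 in NS-GFP4+. Here replicate 3 was the lowest of the NS-GFP4+ samples, 0.28 above the highest other one. Art4, an ADP-ribosyltransferase-family protein that carries the Dombrock blood group, was higher by both of its probes. The brighter one had 10.12, 10.05 and 10.12 in NS-GFP1+, 10.05, 10.14 and 10.42 in NS-GFP2+, 10.14, 10.46 and 10.68 in NS-GFP3+ and 11.24, 11.35 and 11.68 in NS-GFP4+. This probe had means of 10.09 in NS-GFP1+ and 10.20 in NS-GFP2+. It averaged 11.42 ± 0.23 in NS-GFP4+ and 10.43 ± 0.27 in NS-GFP3+ (SD, n = 3 each), with 75.1% of the difference at the last step.

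Mt2, a metallothionein that binds zinc and copper and is induced by metals, had values of 8.78, 8.98 and 8.28 in NS-GFP1+, 8.88, 8.64 and 9.21 in NS-GFP2+, 8.60, 9.48 and 9.44 in NS-GFP3+ and 10.39, 10.16 and 10.06 in NS-GFP4+. The other 3 fractions overlapped, and NS-GFP4+ stood 0.57 above the highest of them. It averaged 10.20 ± 0.17 in NS-GFP4+ and 9.17 ± 0.50 in NS-GFP3+ (SD, n = 3 each), a 2.04-fold rise. The metal response element, searched as TGCACNC or TGCGCNC on either strand, occurred in 5 of 17 rising and 3 of 24 falling promoters (29.4% and 12.5%), against 21.3% of all. The Mt2 promoter, chr8:94172368-94172617 on the plus strand of GRCm38.p6, holds 3 matches, shown in capitals because the gene is known for them.
Mt2: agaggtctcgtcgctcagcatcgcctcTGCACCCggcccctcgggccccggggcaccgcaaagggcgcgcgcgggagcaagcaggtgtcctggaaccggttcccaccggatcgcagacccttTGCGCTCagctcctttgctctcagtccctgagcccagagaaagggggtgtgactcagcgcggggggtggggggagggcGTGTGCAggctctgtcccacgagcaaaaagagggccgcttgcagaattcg

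Gimap3, a GTPase of the immunity-associated family, averaged 8.60 ± 0.13 in NS-GFP4+ and 7.61 ± 0.10 in NS-GFP3+ (SD, n = 3 each). Col1a2, a chain of type I collagen, had 7.35, 7.46 and 7.98 in NS-GFP1+, 7.70, 7.63 and 8.34 in NS-GFP2+, 7.35, 7.86 and 8.65 in NS-GFP3+ and 8.72, 8.66 and 9.14 in NS-GFP4+. The Gimap3 samples lay 0.75 apart between NS-GFP4+ and the rest, whereas for Col1a2 NS-GFP3+ replicate 3 came within 0.01 of NS-GFP4+. Col1a2 and Pecam1 stand in a list of 12 stroma and endothelium markers, 7 of them tested. The mean level of the 7, Col1a2 and Pecam1 included, was 8.83 to 9.07 in NS-GFP4+ and 8.59 to 8.85 in NS-GFP3+. It was 8.88 to 9.11 in NS-GFP2+ and 8.69 to 9.23 in NS-GFP1+. The median of the 7 was 0.37 at the last step and 0.06 between NS-GFP4+ and NS-GFP1+. At the last step Cxcl12, Lepr, Kdr and Sparc, which mark stroma or endothelium, differed by -0.26, 0.60, 0.38 and 0.37. These 4 did not pass in limma, and the part of such cells was not tested.

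Prnp, the prion protein, averaged 7.78 ± 0.30 in NS-GFP4+ and 7.07 ± 0.14 in NS-GFP3+ (SD, n = 3 each), and Susd4, an inhibitor of complement, 8.04 ± 0.23 in NS-GFP4+ and 7.25 ± 0.57 in NS-GFP3+. For both, replicate 3 was the highest NS-GFP4+ sample, and for Susd4 NS-GFP3+ replicate 3 reached within 0.01 of NS-GFP4+. Rnf208, a RING finger protein, had a last step of log2 0.84, Itsn1, an endocytic scaffold, of 0.65, and Camk2n2, an inhibitor of CaM kinase II, of 0.55. The predicted gene Gm11559 rose by 1.32, more than the whole difference, since its NS-GFP3+ mean was its lowest, at 7.92 ± 0.30. Gda, guanine deaminase, had a last step of 0.88, 101% of the difference, with NS-GFP3+ level with NS-GFP1+ and NS-GFP2+ lowest. The remaining rising genes were Plxnc1, the receptor of semaphorin 7A, at 0.54, the selenoprotein Selenom at 0.71, the phosphodiesterase Pde1b at 0.62, Chadl, a chondroadherin-like matrix protein, at 0.68, and the predicted gene Gm1673 at 0.56.

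The largest last step of all 60 was that of A_30_P01027463, a probe without a symbol. Its values were 10.89, 11.25 and 9.68 in NS-GFP1+, 10.78, 11.18 and 10.10 in NS-GFP2+, 10.58, 10.40 and 9.95 in NS-GFP3+ and 13.51, 13.48 and 11.95 in NS-GFP4+. The first 3 fractions did not rise, NS-GFP4+ replicates 1 and 2 were high, and replicate 3 was lowest within each fraction. The mean was 12.98 ± 0.89 in NS-GFP4+ and 10.31 ± 0.32 in NS-GFP3+ (SD, n = 3 each), a 6.36-fold rise.

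Partner genes of the last-step genes were chosen once those were known. They did not have to meet the conditions, so how evenly they changed is not compared with the last-step genes. Of 42 partners 31 had a probe tested, and in limma 2 were higher in NS-GFP4+ than in NS-GFP3+ and 0 lower, where 0.249% of all probes were higher and 0.429% lower. With the replicate number as a block 5 were higher and 3 lower, against 1.98% and 2.13% of all probes. Sema7a, the ligand of Plxnc1, rose by log2 1.09 (SE 0.15, limma adjusted p = 0.0147). Gimap8 rose by log2 0.47 (SE 0.075, limma adjusted p = 0.0279), while Gimap1, Gimap4, Gimap5, Gimap6 and Gimap9 differed by 0.18, 0.64, 0.37, 0.23 and -0.09 and did not pass, though Gimap4 did with the block at 0.00472. The relatives of Cavin2 were higher in value too. Cavin1 differed by log2 0.84 (SE 0.29, limma adjusted p = 0.3) and Cavin3 by log2 1.01 (SE 0.35, limma adjusted p = 0.304), with adjusted p = 0.00352 and 0.00184 with the block. By contrast Mt1, the neighbour of Mt2 in the metallothionein family, differed by log2 0.30 (SE 0.15, limma adjusted p = 0.581) and Itga2b, the platelet partner of Itgb3, by log2 0.01 (SE 0.36, limma adjusted p = 0.998). Itgb2, the shared partner of Itgal and Itgam, differed by log2 -0.29 (SE 0.08, limma adjusted p = 0.17), and passed with the block at 0.0363. Flt3l, the ligand of Flt3, and Cebpb and Cebpd, relatives of Cebpa, differed by 0.26, -0.02 and -0.44 and did not pass. Il18r1, the partner receptor of Il18rap, differed by log2 -0.47 (SE 0.17, limma adjusted p = 0.323) and passed with the block at 0.025.

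Lists of stem cell and lineage genes hold few of the last-step genes and were described beside them. None of the 23 tested stem cell genes of 36 is a last-step gene. In NS-GFP4+ against NS-GFP3+ 4 of them rose in limma and 0 fell, with a median of 0.37 against -0.01 over all probes. They were Mllt3, a cofactor that maintains stem cells, at log2 0.73 (SE 0.079, limma adjusted p = 0.00402), Cdkn1c, a cell cycle inhibitor, at log2 1.07 (SE 0.11, limma adjusted p = 0.00402), Procr, a surface marker of stem cells, at log2 0.70 (SE 0.097, limma adjusted p = 0.0147), and the transcription factor Hlf at log2 0.58 (SE 0.11, limma adjusted p = 0.0467). With the replicate number as a block 13 rose. The count was 2 without NS-GFP3+ replicate 1 or 2 and without any 1 of the 3 NS-GFP4+ samples. Between the ends, NS-GFP4+ against NS-GFP1+, 18 rose and 0 fell, where 6.39% of all probes were higher and 5.33% lower.

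Of the lymphoid priming genes 16 of 24 were tested, Flt3 and Satb1 among them. At the last step 4 fell and 0 rose, with a median of -0.41, where 0.429% of all probes were lower, and 9 fell with the block, where 2.13% were. One of the 4 is Satb1. Both Satb1 and Flt3 were chosen on this contrast, so their direction was fixed in either fit. Blnk, a B cell signalling adaptor, fell, with log2 -1.07 (SE 0.12, limma adjusted p = 0.00557), Dntt, the terminal transferase of early lymphocytes, with log2 -1.16 (SE 0.20, limma adjusted p = 0.036), and Mn1 with log2 -0.57 (SE 0.10, limma adjusted p = 0.0379).  Of 22 myeloid priming genes 20 were tested, Cebpa among them, and 4 fell and 0 rose, with a median of -0.59, or 12 fell with the block, against the same shares of all probes. Irf8, a factor of monocyte and dendritic cell development, fell, with log2 -1.03 (SE 0.12, limma adjusted p = 0.00557), Spi1, which encodes PU.1, with log2 -0.54 (SE 0.09, limma adjusted p = 0.0328), myeloperoxidase Mpo with log2 -0.64 (SE 0.12, limma adjusted p = 0.0403), and Plac8 with log2 -0.57 (SE 0.11, limma adjusted p = 0.0445). Leaving out 1 sample at a time gave 1 to 6 genes for each of these lists. The count was 1 for the lymphoid and 1 or 2 for the myeloid list whichever sample was left out, apart from NS-GFP1+ replicate 3 and NS-GFP3+ replicate 3. Between the ends 11 lymphoid and 15 myeloid genes fell, where 5.33% of all probes were lower. The lists hold Flt3, Satb1 and Cebpa, which were chosen partly on this difference, so the direction of these genes was fixed. For Cebpa this holds at the last step too. B cell markers were lower beside the listed genes. The mean level of the 4 tested of 10 was 9.12 to 9.25 in NS-GFP4+, 9.43 to 9.68 in NS-GFP3+ and 11.36 to 11.75 in NS-GFP1+. Of these markers Vpreb3, a gene of B cell precursors, fell at the last step, with log2 -0.90 (SE 0.16, limma adjusted p = 0.0379). Their part in the lymphoid falls was not tested.

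Of the megakaryocyte and erythroid genes 19 of 22 were tested, Itgb3 among them, with a median of 0.37 at the last step and 0 past the threshold in either direction. In the blocked fit 9 rose and 1 fell, where 1.98% of all probes were higher and 2.13% lower. Pf4, a platelet chemokine, differed by log2 1.10 (SE 0.61, limma adjusted p = 0.617), with an adjusted p of 0.00485 in the blocked fit, and Epor, the erythropoietin receptor, by log2 0.68 (SE 0.19, limma adjusted p = 0.185), with 0.00188. Between the ends 7 rose and 1 fell, where 6.39% of all probes were higher and 5.33% lower, and 15 rose in the blocked fit, where 11.3% were higher. Itgb3 was chosen on the last step and on this difference, so its direction was fixed in both. Lists of S phase genes (28 tested), G2 and M phase genes (27), ribosome biogenesis genes (40) and oxidative phosphorylation genes (29) had 0 genes past the threshold at the last step and medians of 0.09, 0.01, -0.10 and -0.03.

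**Figure D4:**
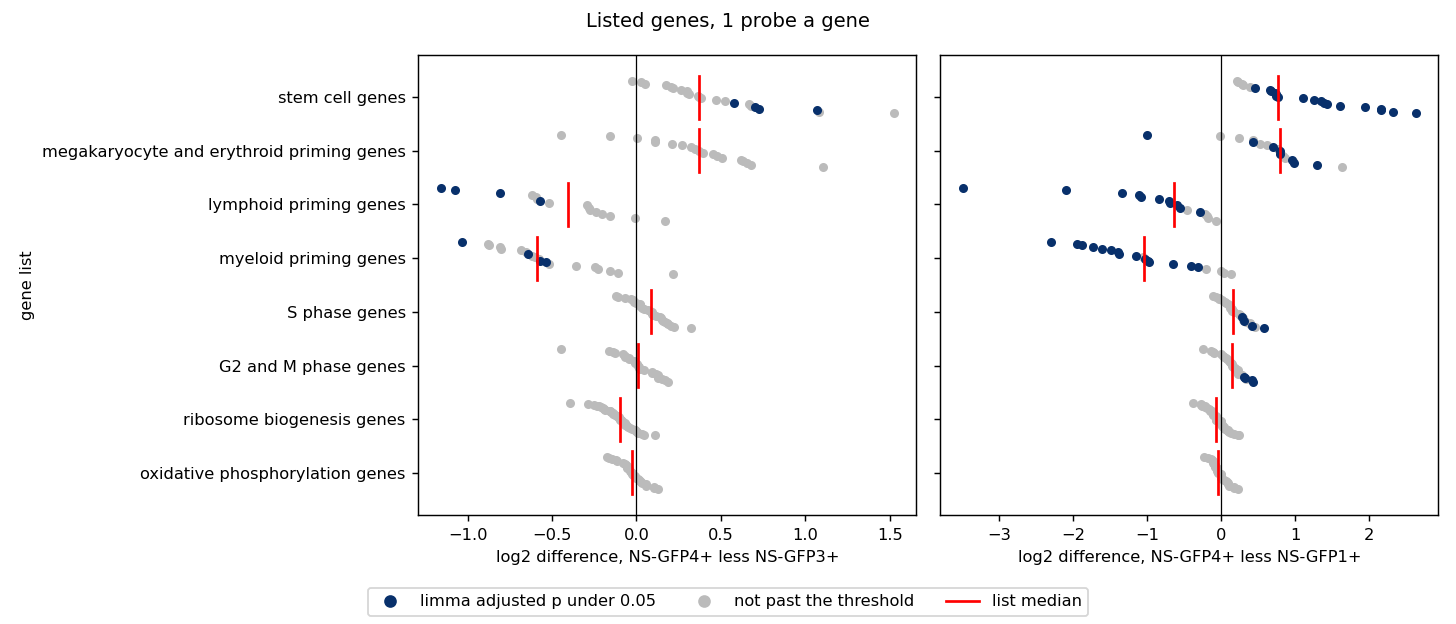
Each point is 1 listed gene, with the log2 difference NS-GFP4+ less NS-GFP3+ on the left and NS-GFP4+ less NS-GFP1+ on the right, and dark points passed a limma adjusted p of 0.05. Red bars are list medians, which at the last step lie at 0.37 for stem cell and for megakaryocyte and erythroid genes, -0.41 for lymphoid genes, -0.59 for myeloid genes and within 0.10 of 0 for the other 4 lists.

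The last-step probes themselves passed the limma threshold for NS-GFP4+ against NS-GFP3+ in 6 of 21 rising and 19 of 39 falling cases, or 19 and 34 with the block. Over all probes 0.249% were higher and 0.429% lower, or 1.98% and 2.13% with the block. Since the choice used this contrast, the counts are a description. All 3 NS-GFP4+ values lay above the other 9 for 3.70% of the 18876 probes and below them for 4.71%. The limma count over all probes depended on single samples, with 128 in all, 215 without NS-GFP3+ replicate 3 and 19 to 32 without either other NS-GFP3+ sample or any 1 NS-GFP4+ sample. It was 52 and 60 without NS-GFP1+ replicate 1 and replicate 2, and 60 to 73 without any 1 NS-GFP2+ sample.

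One contrast that fraction means do not use is that between replicate numbers within fractions, although the condition on single values bears on it. Of the 21 rising probes 10 were higher in replicate 3 and 2 lower, where 18.1% of all probes were higher and 16.5% lower. For the falling probes the counts were 2 higher and 6 lower of 39. Gda differed by log2 0.77 (SE 0.082, limma adjusted p = 0.000279), Cavin2 by log2 1.19 (SE 0.13, limma adjusted p = 0.000352) and Col1a2 by log2 0.69 (SE 0.11, limma adjusted p = 0.0015). In the other direction were A_30_P01027463 with log2 -1.09 (SE 0.15, limma adjusted p = 0.00104) and, among falling genes, Flt3 with log2 -0.23 (SE 0.052, limma adjusted p = 0.00892) and Satb1 with log2 -0.27 (SE 0.07, limma adjusted p = 0.0156). Within replicate numbers the sign of the last step is fixed by the condition on single values, and its median was 0.79, 0.78 and 0.63 for rising probes and -0.76, -0.65 and -0.63 for falling probes in replicates 1, 2 and 3.

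Which probes met the conditions depended on single samples, and differently for probes gained and probes kept. Without NS-GFP3+ replicate 3, 68 probes rose and 105 fell, 18 and 35 of the original ones among them. Without NS-GFP4+ replicate 3 the rising count was 35, 13 of them shared, without NS-GFP4+ replicate 1 the falling count was 59, 35 of them shared, and without NS-GFP3+ replicate 1 it was 23, 17 of them shared. Without that last sample 13 of the 21 rising probes were found again, among 17. With replicates 1 and 2 only, 39 rose and 58 fell, 12 and 20 of them shared. The unscaled signal files of 11 arrays, each set to its own 75th percentile, lack NS-GFP3+ replicate 3 and gave 70 rising and 97 falling, 19 and 32 shared. In them, which are the same arrays and so no independent check of the sign, the last step ran from 0.50 to 2.47 for rising and -1.72 to -0.37 for falling ones.

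**Figure D5:**
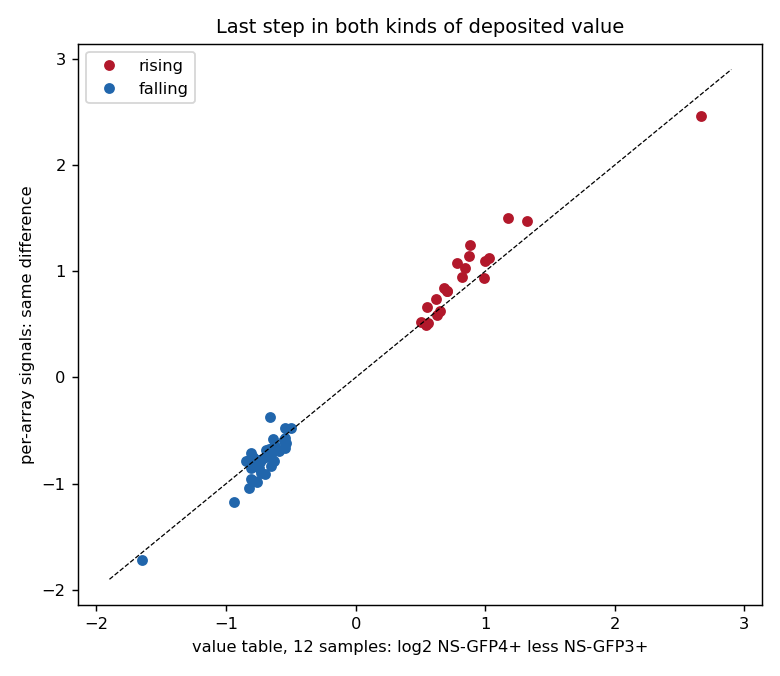
Each point is 1 of the 60 last-step probes, with its log2 difference NS-GFP4+ less NS-GFP3+ in the value table of 12 samples on the x axis and in the per-array signals of 11 arrays on the y axis. Red points are rising, blue ones falling, and the dashed line marks equal values. The points lie near the line, and the median is 0.94 against 0.78 for rising and -0.75 against -0.69 for falling probes.

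The scale also matters, as the number of probes in each direction depends on what the arrays are set to. On the mean of 8 E1A spike-in spots in place of the 75th percentile, the median of all 18876 probes at the last step shifted from near 0 to -0.27. On this scale the last step ran from 0.23 to 2.20 for rising and from -1.99 to -0.63 for falling probes, and 5 rising and 160 falling probes then met the conditions. Rises here are therefore relative to the bulk of the probes.

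Other probes of the same genes show how far each result rests on 1 probe. There were 30 such probes for 18 genes, and 15 of them, for 10 genes, were above the median in all samples. Of these 14 had the sign of the last step and 5 set NS-GFP4+ apart. A second Itgal probe differed by -0.83, a second Tm6sf1 probe by -0.50 and a second Tespa1 probe by -0.43, close to the chosen ones. A second Flt3 probe differed by -0.31, other probes of Itsn1 by 0.33 and 0.52, and one of Plxnc1 by 0.33. Bright probes of Psme2, Capza1 and Itsn1 differed by -0.00, -0.16 and 0.01.

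Just inside the limit of 0.8 were Pde1b at 0.83 and an unnamed probe at 0.82 among the rising and Tespa1 and Mctp2 at -0.80 among the falling probes. Just outside it were Clu at 0.75 and Ltbp4 at 0.71, and a second Tm6sf1 probe and Myl10 at -0.78. At the limit of 60%, Gimap3 with 60.3% and Camk2n2 with 60.7% were inside among rising genes and Cadps2, with a share just short of the limit, and Vwf, von Willebrand factor, with 57.8% outside. Of the falling probes, Itgal and A_55_P2037743, both just past the limit, were inside and Rhbdf2 with 59.0% and Tlr7 with 58.8% outside. Vwf thus missed the choice by little with a whole difference of 2.64, larger than that of any rising probe chosen.

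Outside the choice, the 12 values most like the mean of the falling probes were those of Mpeg1, a pore-forming protein of macrophages, with a Pearson r of 0.99, Mpo and Anxa3 with 0.98, Xpc with 0.98 and Dpp4 with 0.97. For the rising probes they were those of Tubb4b with 0.98, A_55_P2020072, Bex4 and Sema7a with 0.97, and Agpat3 with 0.97. These r are over 12 samples in 4 fractions and describe likeness only. In Mpeg1 55.9% and in Mpo 55.4% of the difference fell at the last step.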

How the data were processed

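Bone marrow LSK cells of 4 NS-GFP fractions, 3 samples each, were measured on 1-colour Agilent arrays. The authors deposited a table of log2 values for 12 samples, whose scaling is not given in the sources used here. They also deposited scanner intensity files per array. Per the labels' protocols, RNA was extracted with TRIzol and labelled with Cy3. Gene symbols came from the platform annotation: 24406 of 42022 probes have 1 symbol, 0 several and 17616 none, and 24198 matched RefSeq by gene ID.

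limma 3.58.1 (R 4.3.3, lmFit and eBayes) was fitted to the log2 values of 18876 probes with fraction means, and p-values were adjusted over all of them by Benjamini-Hochberg. The other fit adds the replicate number as a block. Deviations of same-numbered samples correlated at 0.31 to 0.70 for NS-GFP4+ and NS-GFP3+, and all pairs of the other comparisons exceeded 0.24. Differently numbered samples correlated at -0.64 to 0.41 for NS-GFP4+ and NS-GFP3+ and at -0.63 to 0.47 for NS-GFP4+ and NS-GFP1+. These ranges overlap those of same-numbered samples, and the replicate 3 shift alone can raise the correlations. The main fit does not treat the numbers as pairs, and only the blocked fit does. Replicate 3 was also set against replicates 1 and 2 in a fit with both terms. The fit of fraction means and the replicate 3 fit, but not the blocked one, were run on simulated data with independent samples. The former recovered 84 of 100 last-step changes of log2 1 and 99 of 100 of log2 2. The simulated data lacked the widespread replicate 3 shift seen here, so they do not show how the fits behave with it. The number of arrays limits the precision.

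The deposited intensity signals of 11 arrays, less each array's 75th percentile on the log2 scale, were an alternative, as were other limits, other filters, each sample left out and, chosen after seeing the data, replicates 1 and 2 only and a scale on the E1A spike-in spots. Members, gene lists and partners were chosen with earlier results of these data known. Genes were named by rule: the 12 largest differences between NS-GFP4+ and NS-GFP1+ in each direction, members found in the lists, genes with 2 member probes, neighbours of the limits and the 5 probes most alike in each direction. The other members are named to complete the account, and Itgam, Gda, Mt1 and further partners, listed genes and second probes were singled out after their values were seen. Python 3.11.15 with pandas 2.3.3, numpy 2.4.6 and matplotlib 3.10.9 did the rest.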

Additional observations from a re-analysis of the deposited data

How the results depend on the processing

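Of 21 rising and 39 falling probes, the per-array signals gave 70 and 97, a whole difference of at least 1 gave 11 and 19, a share of at least 0.75 gave 6 and 5, a dim-probe filter met in 1 fraction only gave 46 and 67, and the E1A spike-in scale gave 5 and 160. With replicates 1 and 2 only, 39 rose and 58 fell, with 12 of the original 21 and 20 of the original 39 among them. Leaving out 1 sample gave 16 to 68 rising and 23 to 105 falling probes. For NS-GFP4+ against NS-GFP3+ the 128 probes past the threshold became 777 with the replicate block, 223 with the filter met in 1 fraction, 44 with no filter, 463 with replicates 1 and 2 only, and 19 to 215 without 1 sample. For NS-GFP4+ against NS-GFP1+ 2214 became 3914 with the replicate block, and 1463 to 2308 without 1 sample. For NS-GFP2+ against NS-GFP1+ 37 became 347 with the block, 87 with the filter met in 1 fraction, 96 with replicates 1 and 2 only, and 7 to 46 without 1 sample. For NS-GFP3+ against NS-GFP2+ 0 became 25 with the block, and 0 to 3 without 1 sample. At the last step the stem cell, lymphoid, myeloid, and megakaryocyte and erythroid counts of 4, 4, 4 and 0 became 13, 9, 12 and 9 with the block and 10, 7, 11 and 7 with replicates 1 and 2 only. Without 1 sample they were 2 to 6, 1 to 6, 1 to 6 and 0 to 0. Between NS-GFP4+ and NS-GFP1+ the 7 megakaryocyte and erythroid genes became 15 with the block and 15 with replicates 1 and 2 only. Without 1 sample, 16 to 18 stem cell, 9 to 12 lymphoid, 13 to 15 myeloid, and 4 to 10 megakaryocyte and erythroid genes passed there. The replicate 3 contrast gave 4379 to 6327 probes without 1 sample. Where a count moved, the cause was not tested. Some alternatives use fewer samples or probes, and the part of this was not tested either.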

Other observations

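Between NS-GFP4+ and NS-GFP1+, lists outside the last-step genes moved in part. Of 25 immediate early and stress genes tested, 5 rose and 1 fell in limma 3.58.1, where 6.39% of all probes were higher and 5.33% lower, and Egr1, a transcription factor induced within minutes of stimulation, differed by log2 2.17 and Dusp1, a phosphatase of MAP kinases, by 0.93. Of 28 interferon response genes 6 rose and 2 fell, with Ifit3 at 0.62 and Ifi27l2a at -1.21. Of 28 S phase genes 4 rose and 0 fell, among them Tk1, thymidine kinase, at 0.58, and of 27 G2 and M phase genes 4 rose and 0 fell, among them Birc5, survivin, at 0.42. At the last step 0 genes of these 4 lists passed. Itgax, which encodes the CD11c integrin chain of dendritic cells, fell at the last step, with log2 -0.98 (limma adjusted p = 0.0328). It stands in a list of 11 macrophage and dendritic cell markers, 4 of them tested. No other of the 4 passed at the last step, and their median was -0.13.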
